A study of Homo sapiens with 22 samples.

Results

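SMYD3 RNA was lowered in HN-6 cells by 2 kinds of oligonucleotide, a small interfering RNA (siRNA) and an antisense oligonucleotide (ASO), and the results below are the difference between the 2 responses, gene by gene. The siRNA effect is the log2 ratio of the SMYD3 siRNA libraries to the control siRNA libraries, the ASO effect is the log2 ratio of the ASO libraries to the PBS libraries, and the difference is the siRNA effect minus the ASO effect. Each effect was taken within its own deposited table, so no library was shared between them. The comparison used 10 of the 22 libraries of the series and 17321 genes that were expressed in both tables, out of 55179 symbols that the tables have in common.

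HN-6 is a human squamous carcinoma line of the head and neck. By the study's design text, all cells of the 4 groups received human interferon-β (1000 U/ml) for 24 h before collection, after 72 h with the oligonucleotide in total. The siRNA table holds 3 libraries labelled siNC, a control siRNA, and 3 labelled si1SMYD3. The ASO table holds 2 libraries labelled PBS, the solvent alone, and 2 labelled ASO081. The labels add an interferon suffix to the PBS and ASO libraries and none to the siRNA libraries. Each agent is a single sequence, the ASO has no control ASO beside it, and the way the oligonucleotide entered the cells, the control and the table all change together between the 2 comparisons. Those causes cannot be told apart in the difference. Replicates are called biological in the design text, and p-values measure the spread between these libraries.

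SMYD3 is a lysine methyltransferase of the SET and MYND domain family that methylates histone and other proteins. An siRNA acts through the Argonaute proteins, which cut or silence matching RNA, whereas an ASO of the RNase H type pairs with its target so that RNase H cuts the RNA strand. Interferon-β binds its receptor at the cell surface and, through JAK kinases and factors that include STAT2 and IRF9, switches on genes that carry an interferon-stimulated response element in the promoter. Genes of DNA replication commonly carry E2F sites, and genes of mitosis a cell cycle homology region (CHR) together with CCAAT boxes.

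Promoters of 7 genes are shown as examples of 3 promoter classes that the interferon, mitosis and replication lists hold. CXCL10 rose with both agents. IFIT1, RTP4 and IFI27 rose with the ASO and not with the siRNA. CDC20, E2F1 and UHRF1 fell with the siRNA and not with the ASO. CXCL10 and UHRF1 are members of other lists, so the shares of these 3 lists given below do not count them. The stretches are from RefSeq (GRCh38.p14), read 5′ to 3′ on the strand of the gene, with the letters searched for in capitals on either strand: the core of the interferon-stimulated response element (GAAA, any 2 bases, GAAA) in the first 4, TTTGAA and CCAAT in CDC20, and TTTGGCGC, TTTCCCGC and CCAAT in E2F1 and UHRF1.
CXCL10, chr4:76023638-76023737, minus strand: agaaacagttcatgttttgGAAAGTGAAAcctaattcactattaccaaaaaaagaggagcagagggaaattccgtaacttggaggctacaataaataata
IFIT1, chr10:89392483-89392582, plus strand: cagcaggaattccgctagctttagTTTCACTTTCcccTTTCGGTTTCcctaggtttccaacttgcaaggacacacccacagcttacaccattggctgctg
RTP4, chr3:187368285-187368384, plus strand: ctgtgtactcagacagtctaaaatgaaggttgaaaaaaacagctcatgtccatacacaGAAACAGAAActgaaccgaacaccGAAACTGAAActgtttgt
IFI27, chr14:94110596-94110695, plus strand: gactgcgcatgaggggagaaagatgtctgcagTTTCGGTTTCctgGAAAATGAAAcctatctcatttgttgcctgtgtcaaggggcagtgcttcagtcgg
CDC20, chr1:43358831-43358950, plus strand: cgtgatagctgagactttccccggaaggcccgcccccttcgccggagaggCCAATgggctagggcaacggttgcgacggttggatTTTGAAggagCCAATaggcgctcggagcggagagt
E2F1, chr20:33686386-33686505, minus strand: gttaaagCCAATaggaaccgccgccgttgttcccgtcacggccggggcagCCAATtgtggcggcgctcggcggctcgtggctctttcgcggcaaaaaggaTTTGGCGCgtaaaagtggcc
UHRF1, chr19:4909381-4909500, plus strand: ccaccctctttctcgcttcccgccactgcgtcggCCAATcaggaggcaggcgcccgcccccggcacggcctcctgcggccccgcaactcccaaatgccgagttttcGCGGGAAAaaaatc
A match is a description of the letters only. The interferon element core was present in 28 of 44 promoters of the interferon list (63.6%), against 3% of the 12019 promoters of all genes tested that the table holds. TTTGAA was present in 22 of 31 promoters of the mitosis list (71%, against 10.1%) and CCAAT in 24 of 31 (77.4%, against 36.6%). TTTGGCGC or TTTCCCGC was present in 16 of 33 promoters of the replication list (48.5%, against 3.52%). Genes chosen by their calls alone were closer to the share of all promoters. Among 439 promoters of genes that fell with the siRNA and rose with the ASO, 5.24% held the interferon core, 11.4% TTTGAA and 5.01% an E2F motif, and among 563 of genes that did the reverse 1.78%, 8.35% and 2.84% did. Of 498 promoters of genes that rose with both, 10.8% held the interferon core. IFIT1, RTP4 and IFI27 each hold 2 matches to the interferon element, and CXCL10 holds 1.

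The siRNA table had 32441991 to 54121262 reads per library, and those of the ASO table had 30792923 to 32045158. Mitochondrial genes took 5.73% to 10.2% of the reads of the siRNA table and are listed at 0 in the ASO table. Levels are CPM, a gene's reads scaled to a fixed library total, and are compared within a table. The epithelial markers EPCAM, KRT8 and KRT18 were abundant in every group. The leukocyte gene NKG7 and the endothelial gene CLDN5 had 0 reads in all 10 libraries, but other members of their lists had reads. Mean summed levels of 12 leukocyte markers were 21.7 CPM with control siRNA and 22.1 with the SMYD3 siRNA. They were 14.1 CPM with PBS and 15.9 with the ASO. Those of 7 endothelial markers were 14.2, 7.86, 9.27 and 9.55 CPM in the same order of groups. Of these markers, 6 leukocyte and 3 endothelial genes were tested. Among them the difference was lower for 3 and higher for 1 of the leukocyte genes, and lower for 1 of the endothelial genes. The control groups of the 2 tables stood apart before any SMYD3 agent was considered. All 3 control siRNA libraries lay above both PBS libraries for 49 of 54 interferon response genes (27.7% of all genes tested did so), and below both for 36 of 38 mitosis genes and 39 of 40 replication genes (48.9% of all genes tested). The summed level of the interferon list was 36000, 38800 and 37600 CPM with control siRNA, 47000, 48500 and 45300 with the SMYD3 siRNA, 18300 and 19200 with PBS, and 34000 and 34300 with the ASO. These sums are carried by abundant genes and are set side by side across tables: gene by gene, all control siRNA libraries lay above both ASO libraries for 25 of the 54 (46.3%, against 28.4% of all genes tested) and below both for 14. The summed level of the mitosis list was 1200, 847 and 877 CPM with control siRNA against 4970 and 5230 with PBS. In bulk RNA, fewer cells of a kind and less RNA per cell cannot be told apart. The part that these starting levels play in the difference was not tested.

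**Figure D1:**
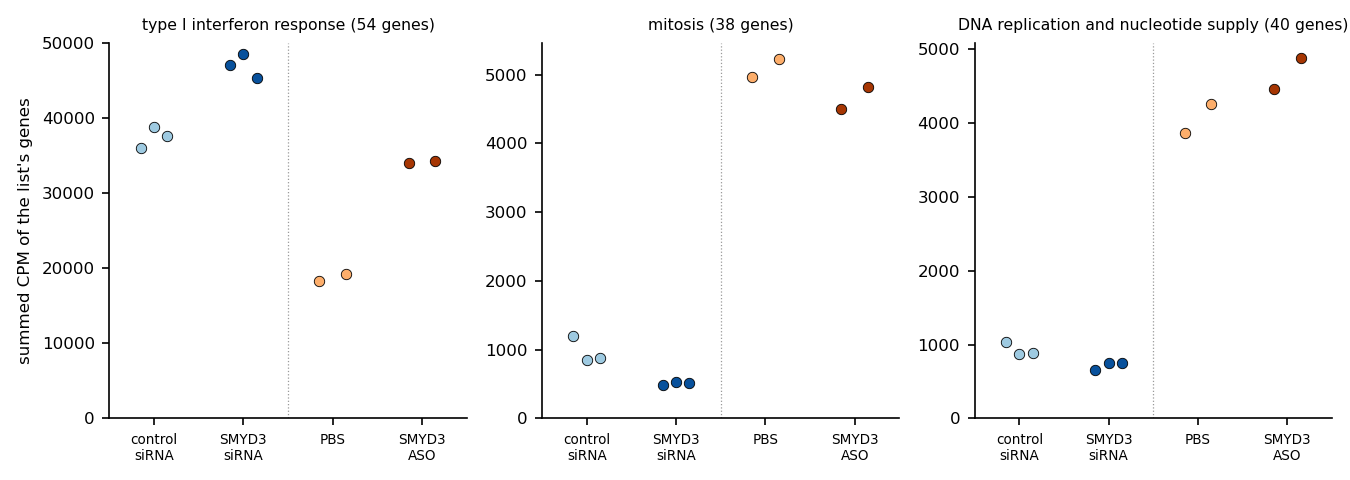
Summed level (CPM, linear axis from 0) of 3 gene lists in each of the 10 libraries, 1 point per library, with the siRNA table left and the ASO table right of the dotted line. The control siRNA libraries (36000 to 38800 CPM) lie above the ASO libraries (34000 and 34300 CPM) for the interferon list, and the siRNA table lies far below the ASO table for mitosis and replication.

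SMYD3 itself fell with both agents. The gene lies at chr1:245749342-246507312 on the minus strand (GRCh38, GENCODE release 29). Its level was 16.4, 13.1 and 15.6 CPM with control siRNA and 2.63, 3.01 and 2.95 CPM with the SMYD3 siRNA. It was 22 and 21.1 CPM with PBS and 4.18 and 3.28 CPM with the ASO. Neither pair of groups overlapped; groups did not overlap for 58.6% of all genes tested in the siRNA table and 62.4% in the ASO table. The siRNA effect was -2.39 ± 0.12 (log2, standard error of the fit) and the ASO effect -2.53 ± 0.12. The difference was 0.13 ± 0.18 with a 95% interval of -0.25 to 0.52 (adjusted p = 0.601), so a difference in depletion beyond that interval was not seen. Of the other family members tested, SMYD2 had an siRNA effect of -0.43 ± 0.09 and an ASO effect of 0.25 ± 0.07, a difference of -0.68 ± 0.13 (adjusted p = 0.000389). The ASO call for SMYD2 was lost without PBS replicate 1 (adjusted p = 0.0911), PBS replicate 2 (0.0607) or ASO replicate 2 (0.0623). SMYD5 fell with the siRNA, at -0.55 ± 0.09, and had an ASO effect of 0.12 ± 0.06 that did not pass the test. SMYD4 passed neither test, with effects of 0.11 ± 0.08 and -0.07 ± 0.08.

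Beyond the target, the responses shared little across genes. A gene was called at a Benjamini-Hochberg adjusted p under 0.05 in edgeR's quasi-likelihood test. With the siRNA 8872 genes were called (51.2% of those tested), of which 4554 rose (26.3%) and 4318 fell (24.9%). With a log2 size of at least 1, 2.75% of genes rose and 4.35% fell with the siRNA, against 0.935% and 0.497% with the ASO. At any size, with the ASO 2068 rose (11.9%) and 1932 fell (11.2%). The difference itself was called for 6908 genes (39.9%), 3500 higher with the siRNA (20.2%) and 3408 lower (19.7%). With a log2 difference of at least 1, these counts were 746 (4.31%) and 867 (5.01%). Of 2423 genes called in both comparisons, 1155 moved the same way, 654 up (3.78%) and 501 down (2.89%). The other 1268 moved in opposite ways. The difference was called for all 1268, but the same libraries had chosen these genes, so this is no separate support. Among them 705 rose with the siRNA and fell with the ASO (4.07%), and 563 fell with the siRNA and rose with the ASO (3.25%). Genes that moved the same way were 13% of the siRNA calls and 28.9% of the ASO calls, and genes that moved in opposite ways were 14.3% and 31.7%. Across the 17321 genes Pearson's r between the effects was 0.047 and Spearman's rho 0.0103, as a description over genes that are not independent replicates. The median absolute effect was 0.30 with the siRNA and 0.17 with the ASO, at similar standard errors (medians of 0.10 and 0.09).

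The ASO calls, from 2 libraries against 2, moved more with the analysis than the siRNA calls or the difference. Without PBS replicate 1 the ASO calls fell to 1336 up and 1383 down, and genes lower with both agents to 323. When both effects were taken from 1 fit of all 10 libraries, 970 genes rose and 901 fell with the ASO. Among genes named below, the ASO calls of SMYD2, UHRF1, SOD2, KIF20A, ETV4, FTL, HMOX1, TXNRD1, LUM, MMP14, TIMP2, KRT8, KRT18 and CDH1 were lost in that fit.

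**Figure D2:**
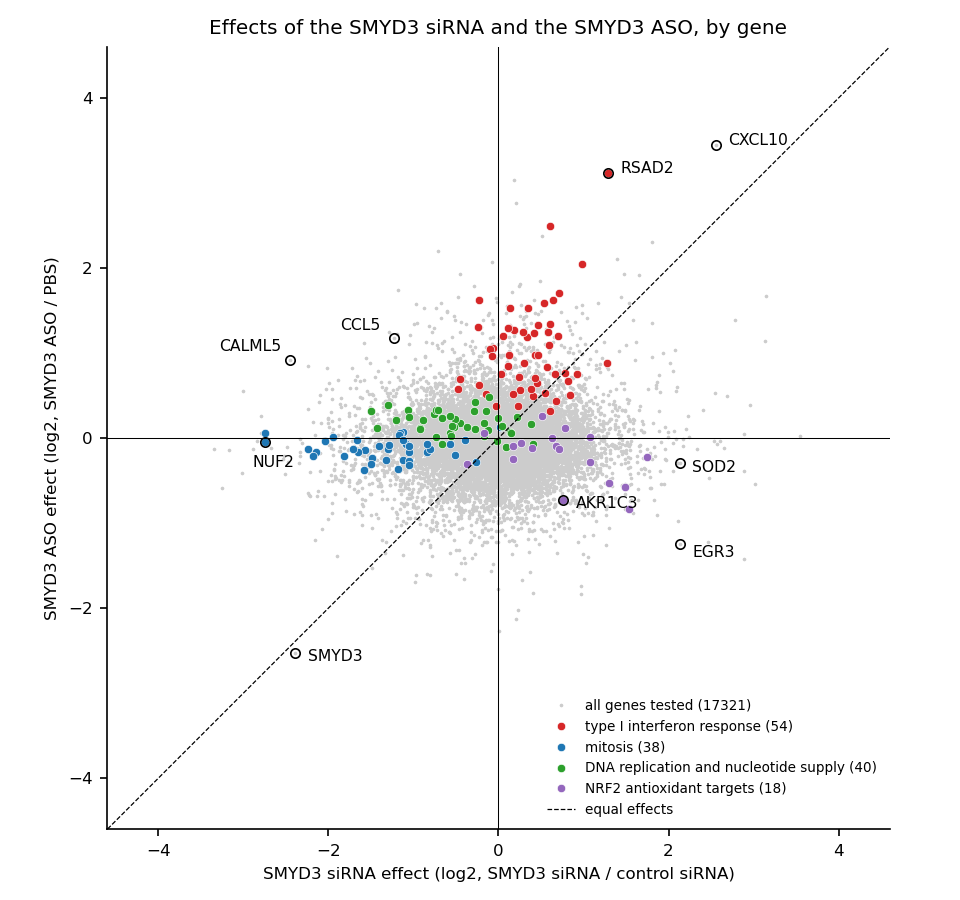
Each gene's siRNA effect (horizontal axis, log2) against its ASO effect (vertical axis, log2), with 17321 genes in grey and 4 gene lists in colour; the dashed line marks equal effects. SMYD3 lies near the line, interferon genes lie mostly above it, mitosis genes spread left along zero ASO effect, and CCL5, CALML5, SOD2 and EGR3 lie in the quadrants of opposite signs.

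Every gene of the type I interferon list rose with the ASO, and fewer rose with the siRNA. All 54 listed genes rose with the ASO (11.9% of all genes tested rose), 34 rose and 4 fell with the siRNA (26.3% and 24.9% of all genes), and 16 did not pass the siRNA test. The difference was lower with the siRNA for 37 and higher for 2 (19.7% and 20.2% of all genes). When both effects were taken from 1 fit of 10 libraries, 52 of the 54 rose with the ASO. List medians were 0.39 for the siRNA effect, 0.97 for the ASO effect and -0.73 for the difference, beside 0.00 for all genes in each.

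RSAD2, which encodes the antiviral enzyme viperin, was among the strongest shared rises. Its level was 296, 336 and 299 CPM with control siRNA and 827, 787 and 668 with the SMYD3 siRNA. It was 26.9 and 29.1 CPM with PBS and 235 and 250 with the ASO. Neither comparison overlapped, and the ASO libraries lay below the control siRNA libraries. The siRNA effect was 1.29 ± 0.10, the ASO effect 3.11 ± 0.07 and the difference -1.82 ± 0.14 (adjusted p = 7.49e-08). CMPK2, a nucleotide kinase gene, had the largest negative difference of the list, with effects of 0.60 ± 0.09 and 2.49 ± 0.06 and a difference of -1.89 ± 0.13.

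IFIT1, whose protein binds viral RNA, rose with the ASO only by the test. It measured 1530, 1700 and 1780 CPM with control siRNA and 1980, 1830 and 1670 with the SMYD3 siRNA, groups that overlapped. PBS libraries were at 476 and 485 CPM and ASO libraries at 1360 and 1410. The siRNA effect was 0.13 ± 0.10 (adjusted p = 0.283), the ASO effect 1.52 ± 0.06 and the difference -1.40 ± 0.13 (adjusted p = 6.26e-07). ISG15, a ubiquitin-like protein gene, showed the same order, with effects of 0.12 ± 0.09 and 1.29 ± 0.08. MX1 and OAS1, an antiviral GTPase and an enzyme that makes the activator of RNase L, rose with both, at 0.33 and 0.42 with the siRNA and 1.19 and 1.23 with the ASO.

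The 4 genes of opposite sign were RTP4, ISG20, IFI27 and IFI44L. RTP4, a receptor transporter gene, measured 121, 137 and 138 CPM with control siRNA, 119, 114 and 103 with the SMYD3 siRNA, 39.1 and 39.3 with PBS and 103 and 90.7 with the ASO. Its difference was -1.54 ± 0.12 (adjusted p = 1.1e-07). The siRNA effect of RTP4, -0.24 ± 0.08, lost its call without control siRNA replicate 2 (adjusted p = 0.0869), control siRNA replicate 3 (0.0618) or SMYD3 siRNA replicate 3 (0.139). That of ISG20, an exonuclease gene, was -0.23 ± 0.09, with overlapping groups, and lost its call without control siRNA replicate 2 (0.205) or 3 (0.0584) or SMYD3 siRNA replicate 1 (0.0853) or 3 (0.167). Its ASO effect was 1.62 ± 0.07 and its difference -1.84 ± 0.13. IFI27 fell by 0.45 ± 0.09 with the siRNA and rose by 0.70 ± 0.06 with the ASO, and IFI44L fell by 0.48 ± 0.11 and rose by 0.58 ± 0.06. The 2 genes with a higher siRNA effect were LAMP3, with a difference of 0.39 ± 0.12, and GBP1, with 0.34 ± 0.13. The LAMP3 difference lost its call without ASO replicate 1 (adjusted p = 0.0744) or PBS replicate 2 (0.0985). The GBP1 difference lost its call without control siRNA replicate 1 (adjusted p = 0.0797), SMYD3 siRNA replicate 2 (0.0881), PBS replicate 2 (0.195) or ASO replicate 2 (0.191), and under 2 other scalings and with no filter on low counts (0.0521 to 0.0706).

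**Figure D3:**
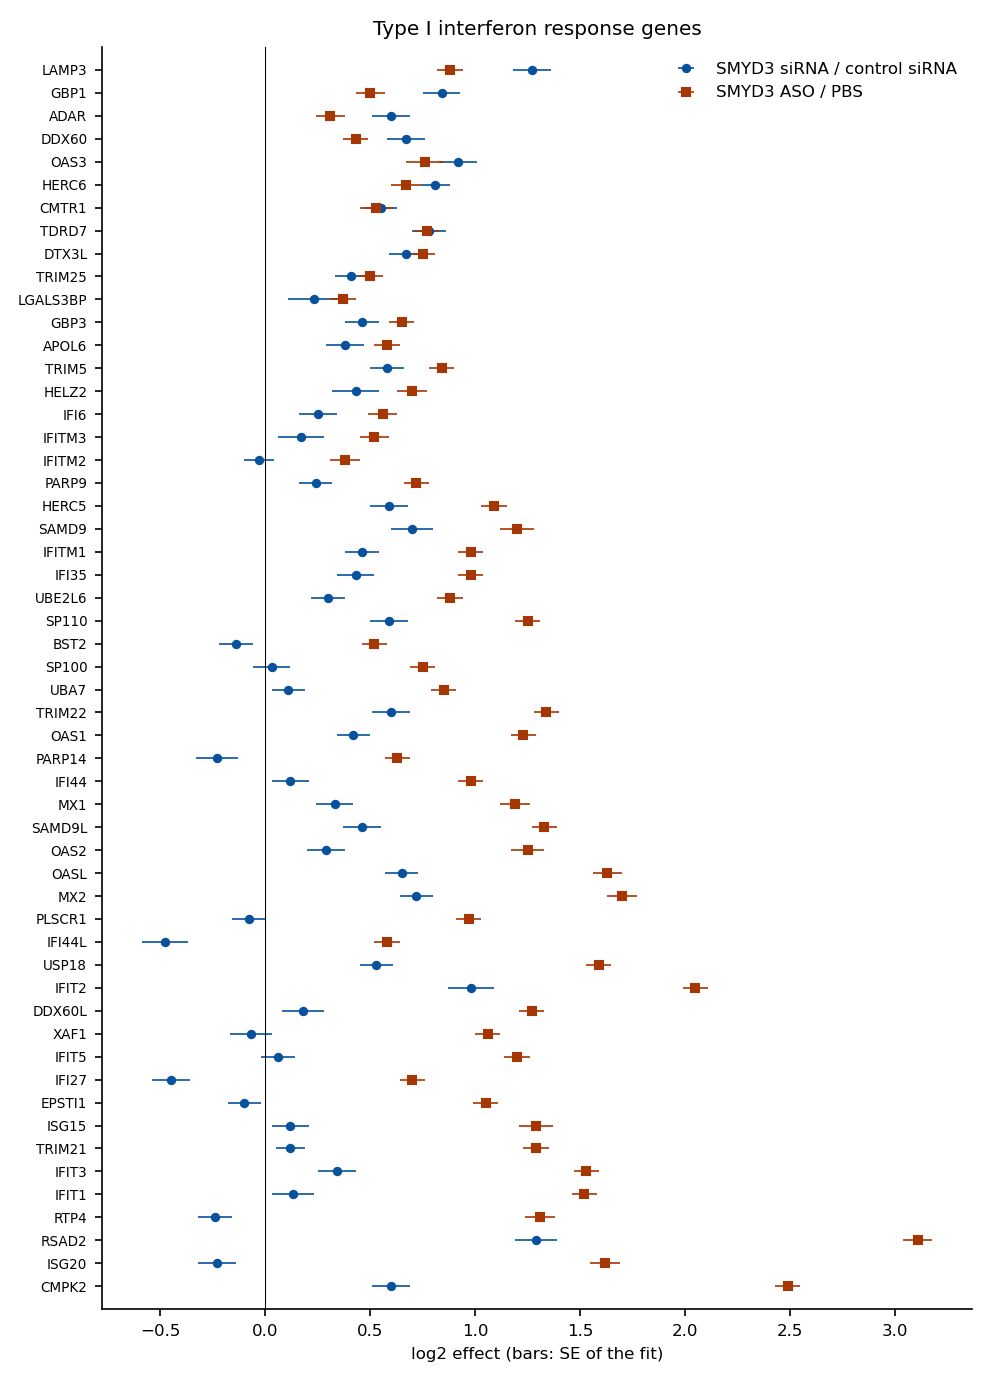
Effects of the siRNA (circles) and the ASO (squares) on the 54 genes of the type I interferon list, log2 with bars for the standard error of the fit, ordered by the difference. Every square lies right of zero, while the circles run from -0.48 to 1.29.

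Genes of the receptor and signalling chain came next. IRF1, an interferon-induced transcription factor, rose to a like extent, from 214, 229 and 208 CPM to 282, 338 and 297 with the siRNA and from 133 and 124 to 181 and 172 with the ASO, with no overlap in either table. Its effects were 0.50 ± 0.08 and 0.46 ± 0.06, and the difference of 0.04 ± 0.12 had an interval of -0.21 to 0.29 (adjusted p = 0.826). STAT2, in contrast, had effects of -0.01 ± 0.08 and 0.70 ± 0.06 (difference -0.70 ± 0.11), and IRF7, which amplifies interferon gene transcription, of -0.14 ± 0.10 and 0.84 ± 0.06 (difference -0.98 ± 0.15). Of 23 receptor, JAK-STAT and IRF genes tested, 11 rose and 2 fell with the siRNA (26.3% and 24.9% of all genes). With the ASO 12 rose and 1 fell (11.9% and 11.2%). Among 17 nucleic acid sensors and adaptors, 12 rose with the siRNA, and 15 rose and 1 fell with the ASO. The gene that fell with the ASO rose with the siRNA. The difference was lower for 10 and higher for 2 (19.7% and 20.2% of all genes). RIGI, a sensor of viral RNA, rose by 0.80 ± 0.09 and 1.38 ± 0.06. IFIH1, which encodes the sensor MDA5, rose by 1.24 ± 0.06 with the ASO; its siRNA effect, 0.19 ± 0.08 (adjusted p = 0.0484), lost its call without any 1 of the 6 libraries of its table (adjusted p from 0.0603 to 0.117).

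Of 22 genes of MHC class I antigen presentation, 13 rose and 3 fell with the siRNA (26.3% and 24.9% of all genes). In that pathway 17 rose with the ASO (11.9%) and 8 rose with both (3.78%), while 3 fell with the siRNA and rose with the ASO (3.25%). The peptide transporter subunit TAP1 rose with both, by 0.36 ± 0.09 and 1.07 ± 0.06. The 3 genes of opposite sign were PSMB8 and PSMB10, catalytic subunits of the immunoproteasome, and PSME2, a subunit of its activator. The siRNA call of PSME2 was lost without control siRNA replicate 3 (adjusted p = 0.0548) or SMYD3 siRNA replicate 3 (0.0775). PSMB8 went from 229, 232 and 239 CPM down to 174, 180 and 172 with the siRNA and from 182 and 180 up to 263 and 258 with the ASO. Its difference was -0.94 ± 0.09 (adjusted p = 1.24e-06). ERAP1, the peptidase that trims peptides in the endoplasmic reticulum, had a difference above 0. It rose from 70.2, 64.5 and 61.5 CPM to 188, 201 and 184 with the siRNA, and measured 79.3 and 86.4 with PBS against 89.1 and 101 with the ASO. Its siRNA effect was 1.55 ± 0.08 and its difference 1.35 ± 0.12 (adjusted p = 2.66e-07), while the ASO effect of 0.20 ± 0.07 did not pass the test (adjusted p = 0.0517; 0.00089 without ASO replicate 1 and 0.0132 without PBS replicate 2). HLA genes are near-identical copies whose reads can be shared, and are not read singly here.

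Among chemokines and cytokines some genes rose with both agents and some were opposed. CXCL10, a CXCR3 ligand that attracts T cells, measured 122, 99.3 and 95.9 CPM with control siRNA and 665, 670 and 525 with the SMYD3 siRNA. PBS libraries were at 3.45 and 3.14 CPM and ASO libraries at 36.7 and 35.2, without overlap in either table. The effects were 2.55 ± 0.12 and 3.45 ± 0.10, and the difference was -0.89 ± 0.19 (adjusted p = 0.00157). CXCL11, which binds the same receptor, rose by 1.80 ± 0.09 and 2.31 ± 0.14. The difference of CXCL11, -0.50 ± 0.17 (adjusted p = 0.0294), lost its call without SMYD3 siRNA replicate 3 (0.0593), PBS replicate 1 (0.258) or ASO replicate 1 (0.151). CCL5, a chemokine that attracts T cells and monocytes, moved in opposite ways: from 47.5, 50.1 and 49.8 CPM down to 20.9, 21.7 and 20.4 with the siRNA, and from 26.8 and 26 up to 63.3 and 55.7 with the ASO. The groups did not overlap, the effects were -1.23 ± 0.07 and 1.17 ± 0.07, and the difference was -2.40 ± 0.11 (adjusted p = 7.58e-10). IL23A, the p19 subunit of interleukin-23, also fell and rose, by 0.98 ± 0.12 and 0.93 ± 0.13.

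Of 14 CXCR2 ligands and interleukin-1 family genes, 7 rose and 4 fell with the siRNA (26.3% and 24.9% of all genes) and 9 rose with the ASO (11.9%). In that list 6 rose with both (3.78%) and 2 fell with the siRNA and rose with the ASO (3.25%). The difference was higher for 3 and lower for 5 (20.2% and 19.7%). CXCL2, an attractant of neutrophils, went from 16.3, 12.4 and 15.3 CPM to 42.7, 57.7 and 54.1 with the siRNA and from 11.3 and 9.08 to 28.4 and 23.9 with the ASO. The difference was 0.45 ± 0.20 (adjusted p = 0.0941; 0.0486 without control siRNA replicate 1 and 0.0168 without SMYD3 siRNA replicate 1). CXCL1 rose by 1.24 ± 0.11 and 1.12 ± 0.12, and CXCL8 by 0.98 ± 0.11 and 0.99 ± 0.17, with differences of 0.11 ± 0.21 and 0.00 ± 0.24. IL1B, in the same list, rose from 8.24, 6.99 and 7.05 CPM to 25.6, 27.6 and 24.8 with the siRNA only. Its ASO effect was -0.24 ± 0.09 (adjusted p = 0.0601; 0.0151 without ASO replicate 1) and its difference 2.04 ± 0.14. TNFSF13B, the B cell survival factor BAFF, rose by 1.44 ± 0.11 and 1.66 ± 0.15. Among checkpoint ligands, CD274, which encodes PD-L1, rose alike (0.77 ± 0.08 and 0.78 ± 0.07; interval of the difference -0.27 to 0.24). IDO1, a tryptophan-degrading enzyme, had effects of 0.16 ± 0.09 and 1.72 ± 0.10, and NT5E, the ectonucleotidase CD73, of -1.47 ± 0.09 and 0.50 ± 0.08.

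Of 18 NF-kB subunits and feedback genes, 15 rose and 1 fell with the siRNA (26.3% and 24.9% of all genes). With the ASO 8 rose and 2 fell (11.9% and 11.2%), and the difference was higher for 9 and lower for 1 (20.2% and 19.7%). In 1 fit of 10 libraries 5 rose and 0 fell with the ASO. The inhibitor gene NFKBIA rose alike, by 0.58 ± 0.09 and 0.68 ± 0.11. TNFAIP3, the feedback ubiquitin editor A20, rose from 125, 101 and 101 CPM to 289, 338 and 312 with the siRNA and from 67.1 and 70.2 to 96.1 and 86.8 with the ASO, a difference of 1.11 ± 0.14 (adjusted p = 1e-05). SOD2, the mitochondrial superoxide dismutase and a known NF-kB target, measured 140 and 146 CPM in control siRNA replicates 2 and 3 (184 ± 71.4 over all 3, SD) and 743, 892 and 791 with the SMYD3 siRNA, then 55.6 and 48.9 with PBS and 43.2 and 41.7 with the ASO. Control siRNA replicate 1 was the highest control by far, though below every SMYD3 siRNA library. The SOD2 effects were 2.13 ± 0.29 and -0.30 ± 0.07 and the difference 2.43 ± 0.40 (adjusted p = 0.00259). The ASO effect of SOD2 lost its call without PBS replicate 1 (-0.21, adjusted p = 0.0896).

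Genes of mitosis gave the largest list-wide difference. Of 38 genes, 36 fell with the siRNA (24.9% of all genes fell), 11 fell with the ASO (11.2%), and the difference was lower for 34 (19.7%). The medians were -1.24, -0.13 and -1.20. The count of 11 with the ASO was 7 by DESeq2, 7 without PBS replicate 2 and 0 when the effects were taken from 1 edgeR fit of 10 libraries (18 had an unadjusted p under 0.05 in the ASO table's own fit), and the 34 of the difference were 27 without PBS replicate 1. CDC20, the activator of the anaphase-promoting complex, measured 44, 29.1 and 27.1 CPM with control siRNA and 6.01, 7.55 and 7.65 with the SMYD3 siRNA. PBS libraries were at 234 and 251 CPM and ASO libraries at 222 ± 13.7 CPM (SD, n = 2), just below them; the ASO effect of -0.13 ± 0.06 did not pass the test (adjusted p = 0.167; 0.044 without ASO replicate 2). Its difference was -2.11 ± 0.26 (adjusted p = 0.000133). MAD2L1 and NUF2, of the spindle checkpoint and the kinetochore, had differences of -2.81 ± 0.19 and -2.71 ± 0.22, with ASO effects of 0.06 ± 0.06 and -0.04 ± 0.06. KIF20A, a kinesin of cell division, was among the 10 genes lower with both, at -1.58 ± 0.20 and -0.38 ± 0.06.

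Of 40 genes of DNA replication, 26 fell and 3 rose with the siRNA (24.9% and 26.3% of all genes). Over all genes tested the difference was lower for 19.7% and higher for 20.2%. With the ASO 16 rose (11.9%), and 12 fell with the siRNA and rose with the ASO (3.25%). The count of 12 became 10 by DESeq2, 7 without PBS replicate 1, 8 without ASO replicate 2, 17 without ASO replicate 1 and 4 with both effects from 1 fit of 10 libraries. The difference was lower for 28 and higher for 1, and was lower for 25 to 28 in those alternatives. The count of 16 that rose was 9 without PBS replicate 1 and 6 in 1 fit of 10 libraries. RPA2, a subunit of the complex that coats single-stranded DNA, went from 32.5, 29.1 and 33.5 CPM to 11.1, 10.4 and 12.1 with the siRNA and from 63.1 and 69 to 79.3 and 85.8 with the ASO. The groups did not overlap, and the difference was -1.82 ± 0.12 (adjusted p = 3.14e-08). PCNA, the sliding clamp, fell by 0.28 ± 0.07 and rose by 0.43 ± 0.06. E2F1, a transcription factor of the G1 to S transition, fell by 1.43 ± 0.12 with the siRNA and had an ASO effect of 0.12 ± 0.06 (adjusted p = 0.16). Cyclin E2, CCNE2, fell by 1.18 ± 0.15 and rose by 0.72 ± 0.08. UHRF1, which guides maintenance DNA methylation and is itself a gene of dividing cells, went from 11.1, 8.43 and 9.77 CPM to 2.58, 2.95 and 3.67 with the siRNA and from 44.8 and 46.7 to 57.1 and 60 with the ASO. The UHRF1 difference was -2.02 ± 0.17 (adjusted p = 2.06e-07).

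Among 18 genes of homologous recombination and the Fanconi pathway, 12 fell and 3 rose with the siRNA (24.9% and 26.3% of all genes). With the ASO 5 rose and 1 fell (11.9% and 11.2%), and the difference was lower for 14 (19.7%). The 5 that rose with the ASO were 10 without ASO replicate 1, 3 without PBS replicate 1 or ASO replicate 2, 3 by DESeq2 and 1 in 1 fit of 10 libraries. RAD54L and XRCC2, both of strand exchange, had the largest differences, -1.38 ± 0.28 and -1.31 ± 0.19. Of 12 genes of the histone list, 10 rose and 1 fell with the ASO (11.9% and 11.2% of all genes). With the siRNA 4 rose and 4 fell, near the shares of all genes (26.3% and 24.9%). H2AC8, a core histone gene, measured 5.15, 5.45 and 5 CPM with control siRNA against 2.79, 3.64 and 3.42 with the SMYD3 siRNA, and 15.2 and 14.2 with PBS against 31.6 and 28 with the ASO. Its difference was -1.68 ± 0.16 (adjusted p = 6.26e-07). H4C8 rose with both, by 0.90 ± 0.11 and 1.36 ± 0.06, and its difference of -0.47 ± 0.16 lost its call without any 1 of 6 of the 10 libraries (adjusted p from 0.0539 to 0.121). Histone messages mostly lack poly(A) tails and histone genes are near copies of each other, so single members are uncertain in these poly(A)-selected libraries.

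**Figure D4:**
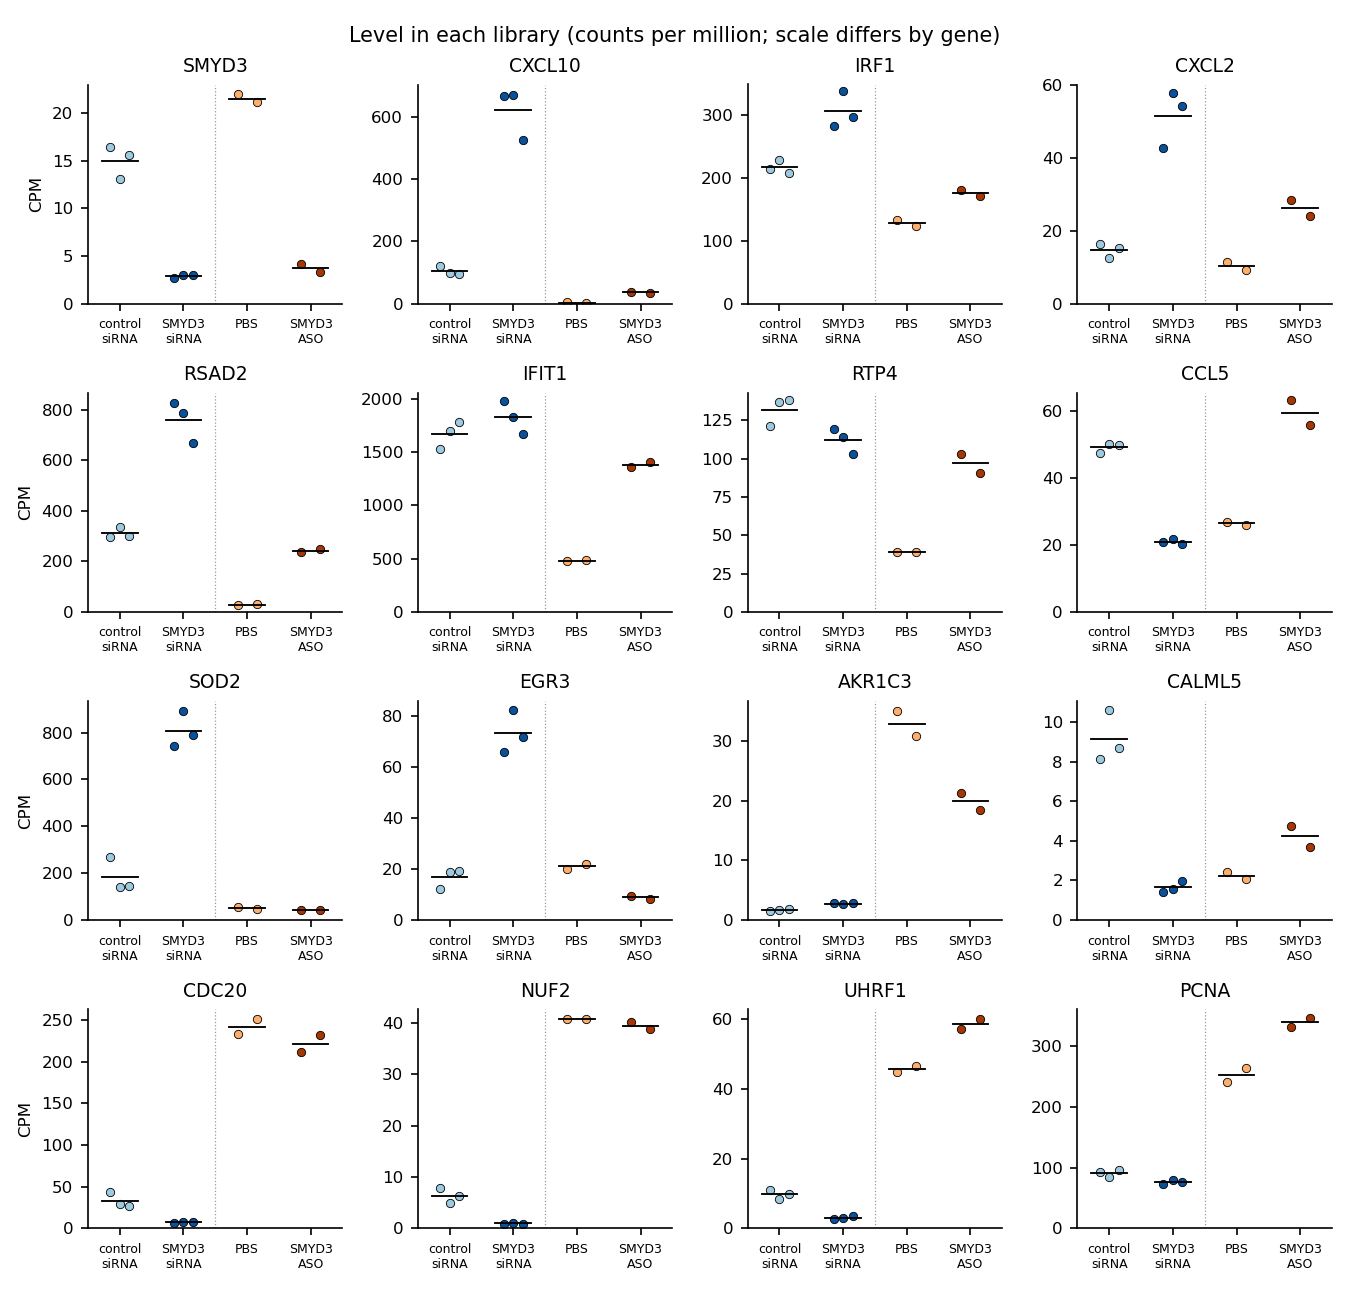
Levels of 16 genes in each library (CPM, linear axes from 0, scale differing by gene), with points for libraries and bars for group means, the siRNA table left and the ASO table right of the dotted line. SMYD3, CXCL10, IRF1, CXCL2 and RSAD2 move the same way in both tables, and CCL5, EGR3, AKR1C3, CALML5, UHRF1 and PCNA move in opposite ways.

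Early response factors were opposed in both directions. EGR3, an immediate early transcription factor, had the largest positive difference under the naming rule. It measured 12.3, 18.8 and 19.1 CPM with control siRNA and 65.7, 82 and 71.7 with the SMYD3 siRNA, and 20.1 and 21.9 with PBS and 9.59 and 8.07 with the ASO. The groups did not overlap, the effects were 2.13 ± 0.16 and -1.25 ± 0.10, and the difference was 3.38 ± 0.24 (adjusted p = 5.74e-07). FOS and FOSB, subunits of AP-1, rose by 1.03 ± 0.09 and 0.65 ± 0.12 with the siRNA and fell by 0.61 ± 0.09 and 1.07 ± 0.08 with the ASO. ETV4, an ETS factor downstream of ERK, and FOSL1, another AP-1 subunit, did the reverse. ETV4 went from 9.24, 8.13 and 6.9 CPM to 1.64, 2.11 and 2.39 with the siRNA and from 47.5 and 51.4 to 58 and 64.6 with the ASO, a difference of -2.28 ± 0.18. CCND1, the ERK-responsive cyclin D1, fell by 1.62 ± 0.08 with the siRNA, and its ASO effect was 0.13 ± 0.07 (adjusted p = 0.208; 0.0249 without ASO replicate 1). Of the 22 genes of the ERK and early response list, 7 rose and 9 fell with the siRNA (26.3% and 24.9% of all genes). With the ASO 7 rose and 2 fell (11.9% and 11.2%), and the difference was higher for 6 and lower for 10 (20.2% and 19.7%). In this list 2 genes rose with the siRNA and fell with the ASO (4 without ASO replicate 1) and 4 did the reverse, and the ASO rises were 4 in 1 fit of 10 libraries. The 2 ASO falls were 4 without ASO replicate 1.

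Of 18 antioxidant genes under NRF2, 14 rose and 1 fell with the siRNA (26.3% and 24.9% of all genes). With the ASO 1 rose and 6 fell (11.9% and 11.2%), and the difference was higher for 13 (20.2%). The 6 that fell with the ASO were 2 in 1 fit of 10 libraries, and the 4 that rose with the siRNA and fell with the ASO were 2 there and 2 without PBS replicate 1. AKR1B10, an aldo-keto reductase, went from 13.6, 15.8 and 15.9 CPM to 45.8, 42.6 and 39 with the siRNA and from 8.62 and 7.32 to 5.87 and 4.79 with the ASO. Its difference was 2.07 ± 0.17 (adjusted p = 1.73e-07), and its ASO effect of -0.58 ± 0.14 lost its call without PBS replicate 1 (adjusted p = 0.0511). SLC7A11, the cystine transporter, rose by 1.75 ± 0.11 with the siRNA, with an ASO effect of -0.23 ± 0.10 (adjusted p = 0.122; 0.0231 without ASO replicate 2). FTL, the ferritin light chain, rose by 1.07 ± 0.10 and fell by 0.28 ± 0.06. AKR1C1, AKR1C2 and AKR1C3 are near copies whose reads may be shared, so single members are uncertain. HMOX1, heme oxygenase, rose with both (0.51 ± 0.08 and 0.26 ± 0.08; the ASO call was lost without PBS replicate 1, adjusted p = 0.108, or ASO replicate 1, 0.255) and TXNRD1, thioredoxin reductase, fell with both (-0.37 ± 0.09 and -0.30 ± 0.06).

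Of 15 genes of lipid droplets, lysosomes and RNA uptake, 12 rose and 1 fell with the siRNA (26.3% and 24.9% of all genes). With the ASO 0 were called by edgeR, DESeq2 or limma-voom in fits of all libraries without a replicate block (23.1% of all genes in the main test). At an unadjusted p under 0.05 in edgeR 1 rose and 1 fell with the ASO; without ASO replicate 1 these 2 counts were also 1 and 1 after adjustment, and without ASO replicate 2, 1 rose. CD36, a scavenger receptor, went from 1.74, 1.18 and 1.85 CPM to 13.7, 9.82 and 12.5 with the siRNA and stayed at 0.646 to 0.847 CPM in the ASO table, a difference of 2.83 ± 0.39. LAMP1, a protein of the lysosomal membrane, had effects of 1.11 ± 0.10 and -0.10 ± 0.06. Of 12 complement genes, 10 rose and 1 fell with the siRNA, and 3 rose with the ASO (11.9% of all genes). C3, the central component, rose from 1110, 1190 and 953 CPM to 2730, 3310 and 3000 with the siRNA, with a difference of 1.34 ± 0.14. CFB, factor B of the alternative pathway, rose with both, by 0.99 ± 0.16 with the siRNA and 0.61 ± 0.07 with the ASO, and its difference of 0.38 ± 0.22 was called only without control siRNA replicate 1 (adjusted p = 0.00627) among the libraries left out in turn.

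Of 28 mesenchymal, matrix and YAP-linked genes, 16 rose and 4 fell with the siRNA (26.3% and 24.9% of all genes). With the ASO 4 rose and 6 fell (11.9% and 11.2%), and the difference was higher for 16 and lower for 1 (20.2% and 19.7%). The 6 that fell with the ASO were 2 without PBS replicate 2, 10 without ASO replicate 2 and 2 in 1 fit of 10 libraries, and the 1 lower difference became 5 without control siRNA replicate 1. LOX, the collagen cross-linking enzyme, rose by 1.77 ± 0.21 with the siRNA, with an ASO effect of -0.39 ± 0.24 (adjusted p = 0.258). Markers of fibroblasts moved with this list: their summed level was 134 to 157 CPM with control siRNA, at least 223 with the SMYD3 siRNA, 120 to 122 with PBS and 96.0 to 113 with the ASO. Of the 9 fibroblast markers, 4 passed the filter and 3 of these rose with the siRNA (1 without SMYD3 siRNA replicate 2 or 3). LUM, lumican, made up most of the change, from 44.3, 53.2 and 53.8 CPM to 120, 133 and 112; its ASO effect of -0.32 ± 0.08 lost its call without ASO replicate 2 (adjusted p = 0.0963). COL1A2, PDGFRA and THY1 were at or near 0 in all 10 libraries. The part of other cells in the list was not tested.

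Of 17 matrix metalloprotease and plasminogen genes, 8 rose and 6 fell with the siRNA (26.3% and 24.9% of all genes). With the ASO 5 rose and 4 fell (11.9% and 11.2%), and 6 were opposed, 3 in each direction. The 4 ASO falls were 2 without PBS replicate 1 or 2 and 0 in 1 edgeR fit of 10 libraries, and the 3 genes higher with the siRNA and lower with the ASO were 1 without PBS replicate 1. The urokinase receptor gene PLAUR went from 115, 135 and 129 CPM down to 69, 89.1 and 80 with the siRNA and from 74.5 and 76.8 up to 129 and 121 with the ASO, a difference of -1.40 ± 0.13. PLAU, urokinase itself, fell by 0.77 ± 0.09 and rose by 0.40 ± 0.06, and the serpin SERPINB5 fell by 0.84 ± 0.09 and rose by 0.58 ± 0.07. MMP14 and its inhibitor TIMP2 rose by 0.58 ± 0.10 and 0.60 ± 0.10 and fell by 0.26 ± 0.06 and 0.22 ± 0.06 with the ASO, where the call of TIMP2 was lost without PBS replicate 1 (adjusted p = 0.11). The simple epithelial keratins KRT8 and KRT18 fell by 0.58 ± 0.10 and 1.02 ± 0.11 with the siRNA and rose by 0.29 ± 0.07 and 0.23 ± 0.06 with the ASO. E-cadherin, CDH1, rose with both, by 1.30 ± 0.09 and 0.20 ± 0.07. Without PBS replicate 1 the ASO calls of KRT8 (adjusted p = 0.164), KRT18 (0.307) and CDH1 (0.371) were lost, and that of CDH1 also without ASO replicate 2 (0.116).

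**Figure D5:**
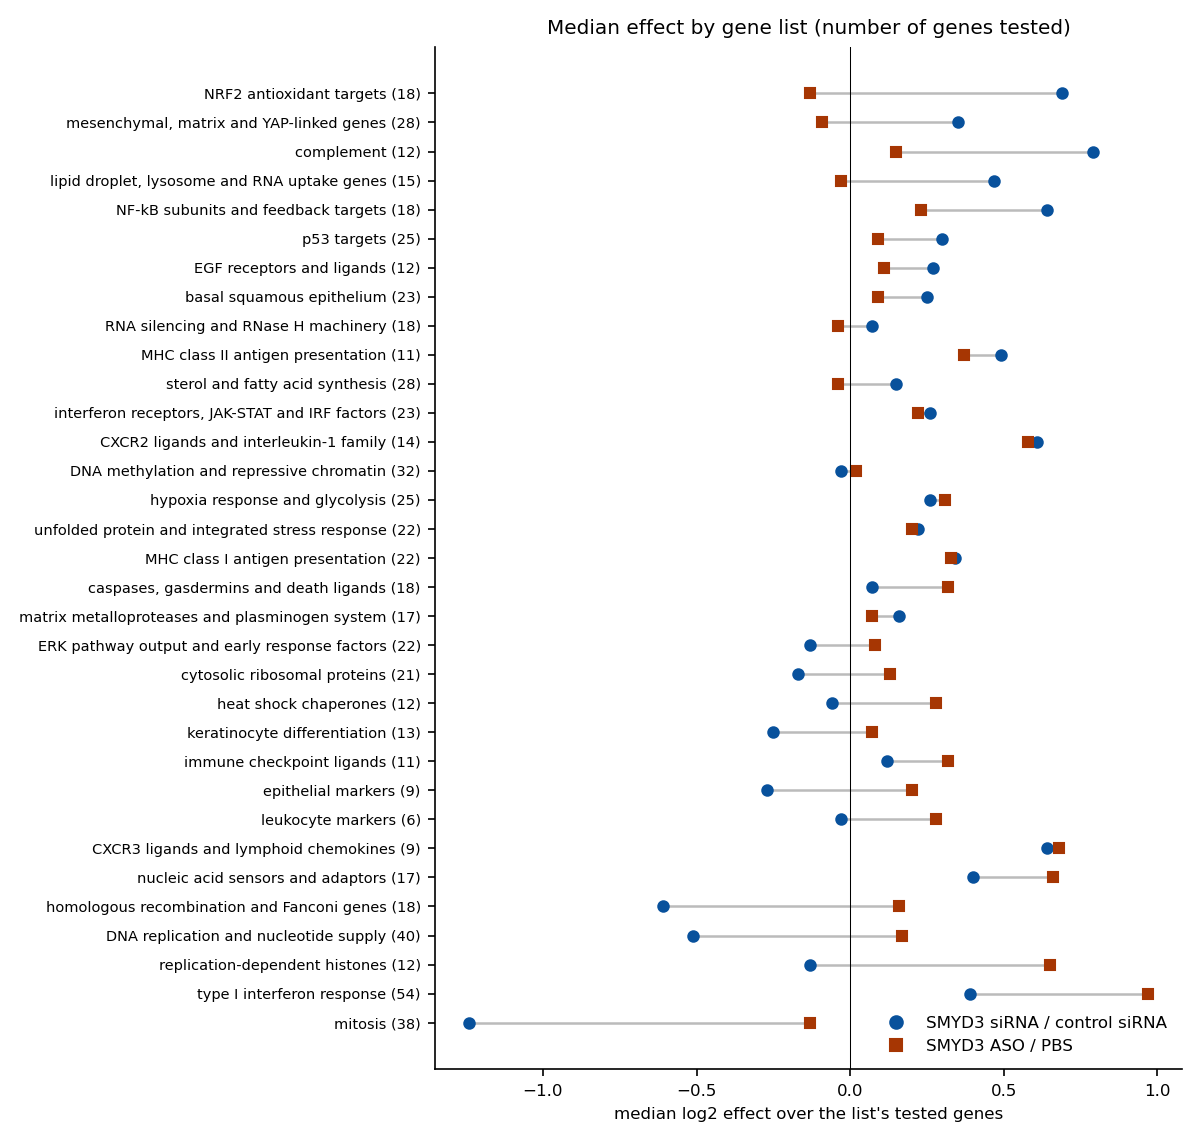
Median siRNA effect (circles) and median ASO effect (squares) of each gene list with at least 5 genes tested, log2, with the number of genes in brackets and lists ordered by the median difference. The widest gaps are in mitosis (-1.24 against -0.13) and NRF2 targets (0.69 against -0.13), and the points for CXCR2 ligands and the interleukin-1 family nearly coincide.

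Genes lower with both agents, after SMYD3, were of modest level. VASH1, a tubulin tyrosine carboxypeptidase, went from 3.66, 3.42 and 2.78 CPM to 1.29, 1.23 and 1.27 with the siRNA and from 5.8 and 5.79 to 2.72 and 2.31 with the ASO. Its effects were -1.37 ± 0.16 and -1.20 ± 0.15, and the difference of -0.17 ± 0.23 had an interval of -0.64 to 0.31. The receptor phosphatase PTPRS fell by 0.78 ± 0.11 and 0.83 ± 0.12, the integrin subunit ITGA2B by 0.90 ± 0.18 and 0.85 ± 0.14, and the copper transporter ATP7B by 0.74 ± 0.17 and 1.03 ± 0.17. The falls of GUCA1B, GPC2 and DICER1-AS1 with the ASO lost their call without PBS replicate 1, at -0.37 (adjusted p = 0.227), -0.66 (0.0826) and -0.49 (0.164), and that of DICER1-AS1 also without ASO replicate 2, at -0.50 (0.0774). The ASO falls of GUCA1B, GPC2 and DICER1-AS1 were also not called by DESeq2 (0.268, 0.0529 and 0.0513). DICER1-AS1 is an antisense gene, and its reads may belong to its partner where counting ignored strand.

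Other genes of opposite sign under the naming rule belonged to none of the lists. CALML5, a calmodulin-like protein of the epidermis, had the largest negative difference of these, -3.37 ± 0.25 (adjusted p = 7.15e-08). Its level went from 8.12, 10.6 and 8.71 CPM to 1.4, 1.59 and 1.97 with the siRNA and from 2.42 and 2.06 to 4.76 and 3.71 with the ASO. OTOF, otoferlin, a protein of vesicle fusion, followed with effects of -0.97 ± 0.18 and 1.57 ± 0.15. HEG1, a transmembrane protein of cell junctions, did the reverse: 159, 147 and 140 CPM became 305, 355 and 305 with the siRNA, and 192 and 188 CPM became 104 and 104 with the ASO. Its difference was 1.99 ± 0.12 (adjusted p = 1.29e-08). The netrin receptor gene UNC5B and NNMT, which methylates nicotinamide, rose with the siRNA (0.90 ± 0.10 and 0.83 ± 0.17) and fell with the ASO (-0.76 ± 0.14 and -1.06 ± 0.16).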

How the data were processed

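RNA from 10 libraries of HN-6 cells was analysed. The authors deposited whole-number read counts per gene in 1 table for the siRNA libraries and 1 for the ASO libraries; per the submitters' processing notes the genome build was hg38 and the tools were bcl2fastq and Bowtie. No source used here names the counting tool, annotation release or strand setting. Tables were joined on gene symbols: 23588 of the 60554 lines of the siRNA table had no symbol (0.849% to 0.917% of reads), and 20032 of these were named from GENCODE release 29 by identifier; 3837 symbols were brought up to date. Genes had to pass filterByExpr in each table (18714 and 18008 passed, 17321 in both). edgeR 4.0.16 in R 4.3.3 (TMM factors within each table, robust quasi-likelihood F-test, two-sided, Benjamini-Hochberg over 17321 genes, called at an adjusted p under 0.05) gave each effect from its own table and the difference from 1 fit of 10 libraries. Errors are standard errors of the fit.

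Replicate numbers were not used as a block, because the labels do not say that a number marks paired libraries. Correlations of deviations were 0.239, 0.355 and -0.0523 for same-numbered siRNA libraries, and -0.437 to 0.226 for unlike numbers. Same-numbered PBS and ASO libraries were at 0.255 and unlike numbers at -0.255. With 2 libraries a group, these values can differ only in sign. Results with the block are given below as an alternative. Replicates differed beyond sampling noise (chi-square per degree of freedom 4.08 to 25.5), so none was counted as a duplicate. The procedure was tested on simulated data.

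Genes named are SMYD3, UHRF1, the members of each list with the largest called difference or the largest shared effect, and the 8 genes per class of agreement or opposition with the largest smaller effect and the 6 with the largest difference each way, at a mean log2 CPM of at least 1 in each table and without overlap of groups. IFIT1, ISG15, MX1, OAS1, IFI27, IFI44L, GBP1, PSME2, PCNA, FTL, FOSL1, PLAU, MMP14 and TIMP2 were added after their values were seen. Members, lists and tests were chosen with earlier results of these data known. Alternatives were other scalings, filters, DESeq2 1.42.0, limma 3.58.1 (voom), the replicate block, 1 fit for all effects and leaving out each library.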

Additional observations from a re-analysis of the deposited data

Results flagged for a closer look

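The 2 effects differed by the test of the difference itself for 6908 genes. They include all 1268 genes called with opposite signs, which the same libraries had chosen. Under the naming rule the largest log2 differences (siRNA effect minus ASO effect) above 0 were those of EGR3 at 3.38, RRAD at 2.49, TLL2 at 2.44, SOD2 at 2.43, PPP4R4 at 2.38 and BNC2 at 2.28. The largest below 0 were those of CALML5 at -3.37, NUF2 at -2.71, OTOF at -2.55, CCL5 at -2.40, MYEOV at -2.30 and ANKRD29 at -2.30. Of these, TLL2, NUF2 and ANKRD29 were called with the siRNA and not with the ASO, whose effects were -0.39, -0.04 and -0.24. The other 9 were called in both comparisons with opposite signs; the ASO effect of BNC2 lost its call without PBS replicate 2 (-0.49, adjusted p = 0.09), and that of SOD2 without PBS replicate 1.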

How the results depend on the processing

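The counts for the difference and for the siRNA effect stayed within 1.5 times in every alternative run: the difference from 2753 to 3778 genes higher and 2654 to 3789 lower. ASO calls did not. With 2068 up and 1932 down in the main test, DESeq2 gave 1368 and 1073, 1 fit of 10 libraries 970 and 901, and leaving out a library 1336 to 2183 and 1383 to 1932. Genes called in both comparisons followed: higher in both 371, lower in both 254, higher with the siRNA and lower with the ASO 349, and the reverse 270, from 1 fit of 10 libraries; DESeq2 gave 260 lower in both, 438 higher with the siRNA and lower with the ASO, and 371 the reverse. Leaving out a library gave 442 to 705, 323 to 545, 497 to 721 and 369 to 578 for these 4 counts, with PBS replicate 1 the lowest for all but the third.

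With the replicate block, 3389 genes rose and 3237 fell with the ASO, and 1079, 838, 1157 and 974 genes were called in both comparisons in the order above. In the lysosome and uptake list, 2 genes rose and 1 fell with the ASO under the block. The numbers share a name and are not known to pair the libraries.

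Pearson's r between the effects stayed at 0.0259 to 0.0583. The median difference of the interferon list stayed at -0.78 to -0.68, that of mitosis at -1.30 to -0.97 and that of NRF2 targets at 0.67 to 0.79. The median over leukocyte markers, 6 genes near background, was 0.06 with no filter on low counts against -0.49, with more genes of low counts tested. With 2 libraries a group for the ASO and 3 for the siRNA, replicate number limits both sets of calls.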

Other observations

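Other lists are given by their counts, beside the shares of all genes that rose and fell: 26.3% and 24.9% with the siRNA and 11.9% and 11.2% with the ASO. Of 12 heat shock chaperones, 10 rose with the ASO, while 2 rose and 3 fell with the siRNA, and the 10 were 6 in 1 fit of 10 libraries. HSPE1, the mitochondrial co-chaperone, had effects of -0.82 ± 0.11 and 0.32 ± 0.07, and DNAJA1, a co-chaperone of HSP70, of -0.04 ± 0.08 and 0.68 ± 0.06. Of 21 cytosolic ribosomal protein genes, 7 fell and 0 rose with the siRNA, and 3 rose and 0 fell with the ASO. The 7 falls and the 3 rises were near the shares of all genes. The difference was lower for 9 and higher for 0, against 19.7% and 20.2% of all genes. Without PBS replicate 1 the ASO rises were 0 by edgeR (13 had an unadjusted p under 0.05 with all libraries) and the difference was lower for 4, and without SMYD3 siRNA replicate 3 the siRNA falls were 4. Of 25 hypoxia and glycolysis genes, 14 rose and 3 fell with the siRNA, and 17 rose and 1 fell with the ASO. In this list 10 rose with both and 2 fell with the siRNA and rose with the ASO (3.78% and 3.25% of all genes). The 10 were 6 without SMYD3 siRNA replicate 2 and 6 in 1 fit of 10 libraries. Of 18 genes of the RNA silencing and RNase H machinery, 7 rose and 2 fell with the siRNA. With the ASO 1 rose and 4 fell. The 7 were 3 without control siRNA replicate 2 or 3 and 4 without SMYD3 siRNA replicate 3, and with the ASO 6 rose and 2 fell without ASO replicate 1, and 2 fell without PBS replicate 2.

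Of 28 genes of fatty acid and sterol synthesis, 9 rose and 8 fell with the siRNA. With the ASO 3 rose and 9 fell, and the 9 were 2 in 1 fit of 10 libraries. The difference was higher for 7 and lower for 3 (20.2% and 19.7% of all genes), and was not called for 18. FASN, fatty acid synthase, rose by 0.75 with the siRNA and fell by 0.34 with the ASO, a difference of 1.09. Its ASO call, and those of HSPE1 and FAS, were lost in 1 fit of 10 libraries (adjusted p = 0.128, 0.0654 and 0.095). MSMO1, a sterol oxidase, fell by 1.41 with the siRNA, and its ASO effect of 0.01 was not called. Of 25 p53 targets, 17 rose and 3 fell with the siRNA, and 10 rose and 2 fell with the ASO (5 rose in 1 fit of 10 libraries). The 17 were 13 without control siRNA replicate 2 and 14 without control siRNA replicate 3. In this list 5 rose with both (3.78% of all genes). Another 2 rose with the siRNA and fell with the ASO, and 1 did the reverse (4.07% and 3.25%). The difference was higher for 12 and lower for 5 (20.2% and 19.7% of all genes), so the 5 were near the share of all genes. FAS and MDM2 rose with both, at 0.82 and 0.55 with the siRNA and 0.32 and 0.37 with the ASO.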
